A study of Homo sapiens with 8 samples.

Results

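Brain organoids in which FABP7 was knocked down were compared with control organoids for 10 genes that ERK signalling induces: the transcription factors ETV1, ETV4 and ETV5, the phosphatases DUSP4 and DUSP6, the inhibitors SPRY1, SPRY2, SPRY4 and SPRED1, and the receptor IL17RD. The genes were taken by symbol from a table of 17504 genes, in which all 10 were found, and 9 of them passed the filter on low counts that left 13468 genes for testing. The set was chosen by its counts in these same libraries, knockdown against control, so the differences of its genes are given as a description with no p-value, and where a call of the all-gene fit is mentioned for one of them it supports nothing. The tested material was 3 bulk RNA libraries of FABP7 knockdown organoids, set against 3 bulk libraries of control organoids labelled wild type, all at day 30 and all from the human induced pluripotent stem cell line IMR90-4. Per the labels, each group came from 1 derived cell line, FKD for knockdown and FCT for control, and whatever else separates the lines cannot be told apart from the knockdown. The labels state neither the knockdown method nor whether replicates came from separate cultures, so the spread behind each p-value may be that of technical repeats. The 2 single-cell libraries in the labels were not analysed here. FABP7 encodes the fatty acid binding protein of radial glia, and the study's title places it in the stability of the radial glial scaffold.

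The pathway behind these genes starts at receptor tyrosine kinases such as the fibroblast growth factor (FGF) receptors, which load RAS with GTP and so start the kinase relay of RAF, MEK and ERK. Active ERK relieves repression by the DNA-binding protein CIC and activates ETS-family factors, and among the transcripts that follow are both effectors, the ETV factors, and inhibitors that act back on the relay: DUSP phosphatases, Sprouty proteins, SPREDs and IL17RD. In the developing forebrain the ETV and Sprouty genes are best known as markers of tissue that receives FGF8 from the anterior midline.

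CIC is known to bind short octamers in the control regions of some of these genes. The 250 bases before annotated starts in the RefSeq promoter table (GRCh38.p14) were therefore searched for them. The member windows reported here are those of 16 starts of 7 members. The windows are not separate promoters: several belong to ETV1, and those before its starts at 13990702 and 13990706 share nearly all their bases. Windows of DUSP4, ETV4 and ETV5 are not among the 16, so nothing is said of the promoters of these genes. The spellings searched on both strands were TGAATGAA, TGAATGGA, TCAATGAA and TCAATGGA for CIC, CCGGAAGT for ETS factors, TGANTCA for AP-1, TGACGTCA for CREB and the CArG box of SRF by name. A CIC octamer was present in 2 of the 16 windows, that of DUSP6 and that of the outermost ETV1 start, and in 3.18% of all 35116 windows in the table. None of the other motifs was in any of the 16 windows, while 3.42% of all windows held the ETS motif, 6.57% AP-1, 1.65% CREB and 1.16% a CArG box. The DUSP6 window lies at chr12:89352502-89352751 on the minus strand, with the octamer beginning 24 bases before the start and read on the opposite strand. The ETV1 window lies at chr7:13991426-13991675 on the minus strand, with the octamer beginning 125 bases before the start. The window of SPRED1, at chr15:38252586-38252835 on the plus strand, is shown beside them because SPRED1 is the member whose knockdown and control libraries overlapped at a well-covered level. Capitals mark the octamer, and no octamer was found for SPRED1.
DUSP6: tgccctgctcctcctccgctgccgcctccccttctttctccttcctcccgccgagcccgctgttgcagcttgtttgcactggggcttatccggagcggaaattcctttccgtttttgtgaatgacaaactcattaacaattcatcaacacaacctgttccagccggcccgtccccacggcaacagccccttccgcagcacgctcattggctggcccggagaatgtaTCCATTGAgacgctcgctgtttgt
ETV1: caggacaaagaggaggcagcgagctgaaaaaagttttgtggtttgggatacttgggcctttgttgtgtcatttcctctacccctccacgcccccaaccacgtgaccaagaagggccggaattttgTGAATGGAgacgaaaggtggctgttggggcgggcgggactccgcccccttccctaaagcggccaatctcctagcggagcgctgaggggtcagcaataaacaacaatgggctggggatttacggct
SPRED1: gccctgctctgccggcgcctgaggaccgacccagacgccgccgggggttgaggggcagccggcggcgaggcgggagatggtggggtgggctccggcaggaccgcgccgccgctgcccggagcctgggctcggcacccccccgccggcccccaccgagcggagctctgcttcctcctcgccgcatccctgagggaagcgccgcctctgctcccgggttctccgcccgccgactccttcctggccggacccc

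The libraries held 15063815 to 15360145 estimated counts in knockdown and 13424959 to 15675888 in control, and FABP7 itself fell in knockdown (log2 fold change -7.57 ± 0.09 SE, edgeR adjusted p = 6.04e-26). Neural genes identified the tissue: the summed level of 12 progenitor and neuron markers was 5180 to 5220 CPM (counts scaled to a common library size with TMM factors) in knockdown and 6040 to 6080 CPM in control. Of these markers 8 were lower, including STMN2 (-0.37) and TUBB3 (-0.34) of young neurons, and 1 was higher, SOX2 (0.58) of progenitors, where 25.3% of all genes tested were called lower and 26.4% higher. FABP7 is itself one of the 12, and without it 7 of 11 were lower and the sum was 5180 to 5220 CPM in knockdown and 5850 to 5880 CPM in control. In bulk libraries fewer cells of a type and less RNA per cell cannot be told apart, and this holds for every level below. The design text speaks of adipogenic differentiation, but 5 adipocyte genes summed to 1.96 to 2.66 CPM in knockdown and 1.75 to 3.2 CPM in control. Markers of endothelium reached at most 0.798 CPM in sum, and of choroid plexus at most 2.25 CPM. Among markers of other types, the 5 mesenchyme genes summed to 15.3 to 16.2 CPM in knockdown and 7.49 to 9.05 CPM in control, with 1 of 3 tested higher, LUM. The 4 genes of microglia and blood summed to 10.4 to 10.7 CPM in knockdown and 3.04 to 3.2 CPM in control, nearly all of it AIF1, while PTPRC had 1 count in knockdown and 0 in control. Of the oligodendrocyte lineage, SOX10 and CSPG4 were lower, the CSPG4 call being lost without knockdown replicate 2 (edgeR adjusted p = 0.0615). The 5 astrocyte genes summed to 13.2 to 15.9 CPM in knockdown and 6.01 to 7.03 CPM in control, with GJA1 higher and AQP4 lower of 2 tested, AQP4 losing its call without knockdown replicate 3 (edgeR adjusted p = 0.0544) or control replicate 1 (0.132), and GFAP near 0. The 4 pluripotency genes summed to 9.71 to 11.6 CPM in knockdown and 13.9 to 15.9 CPM in control, with LIN28A lower of 3 tested. No listed marker in the table was at 0 in all 6 libraries, and the part of these shifts in the results below was not tested.

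ETV1, ETV4 and ETV5 form the PEA3 group of ETS factors, which carry the growth factor signal to DNA. ETV1 (chromosome 7, 13891229 to 13991425, GRCh38.p14) had 11.2, 11 and 11.6 CPM in knockdown libraries 1, 2 and 3, against 44.2, 39.9 and 46 CPM in control libraries 1, 2 and 3. Every knockdown library lay far below every control library, with a log2 fold change of -1.94 ± 0.08 SE, 3.85-fold lower in knockdown. ETV5 (chromosome 3, 186046314 to 186109089) had 12.4, 12.2 and 12.2 CPM in knockdown, against 31.5, 30.6 and 31.2 CPM in control. The libraries within each group were almost level, and the knockdown was 2.53-fold lower (log2 fold change -1.34 ± 0.08 SE). ETV4 (chromosome 17, 43527846 to 43546340) was close to the limit of detection, with 8, 2 and 6 counts in knockdown and 22, 14 and 8 counts in control. Its highest knockdown library met its lowest control library, the gene did not pass the low-count filter, and its summed counts, 16 and 44, gave a ratio of knockdown to control of 0.364 with an exact 95% interval of 0.192 to 0.658 that covers counting error only.

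DUSP4 and DUSP6 encode dual-specificity phosphatases that remove the activating phosphates from ERK, DUSP6 in the cytoplasm and DUSP4 in the nucleus. DUSP6 (chromosome 12, 89347235 to 89352501) had 1.84, 2.64 and 2.26 CPM in knockdown, against 8.97, 8.55 and 7.9 CPM in control. The groups stood apart by more than the range within either one, and the knockdown was 3.76-fold lower (log2 fold change -1.91 ± 0.15 SE). An antisense transcript, AC024909.2, covers 40.5% of the exonic bases of DUSP6 in GENCODE 29, and since the counting is not stated to use strand, reads of the pair cannot be told apart. DUSP4 (chromosome 8, 29333064 to 29350684) had 22.6, 22.9 and 21.3 CPM in knockdown, against 43.1, 45.8 and 46.6 CPM in control. The knockdown level was 2.03-fold lower (log2 fold change -1.02 ± 0.07 SE), again with no overlap.

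**Figure D1:**
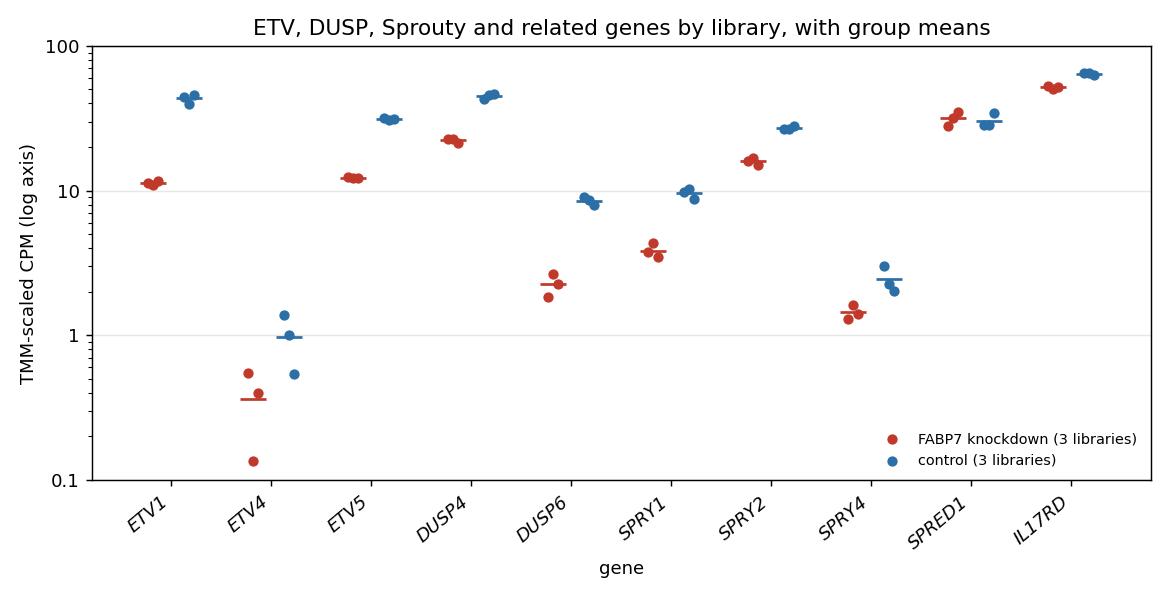
Level of each of the 10 genes in the 6 libraries as TMM-scaled CPM on a log axis, knockdown in red left of control in blue, with a bar at each group mean. The groups are apart for every gene but ETV4, which is near 1 CPM or below, and SPRED1, where knockdown spans 28 to 35.2 CPM and control 28.3 to 34.4 CPM.

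Sprouty proteins sit at the membrane and block the step from receptor to RAS and RAF, and SPRED1 recruits neurofibromin, which returns RAS to its inactive form. SPRY1 (chromosome 4, 123396795 to 123403760) had 3.75, 4.32 and 3.46 CPM in knockdown, against 9.73, 10.3 and 8.71 CPM in control, a log2 fold change of -1.31 ± 0.13 SE. SPRY2 (chromosome 13, 80335976 to 80341126) had 16, 16.9 and 15 CPM in knockdown, against 26.7, 26.5 and 27.9 CPM in control, a log2 fold change of -0.76 ± 0.08 SE. For both genes the knockdown libraries were all below the control libraries, and the ratio between the groups was wider for SPRY1 (2.49-fold) than for SPRY2 (1.69-fold). SPRY4 (chromosome 5, 142310430 to 142325021) was low throughout, with 1.3, 1.62 and 1.4 CPM in knockdown against 3.01, 2.25 and 2.02 CPM in control, a log2 fold change of -0.76 ± 0.23 SE. Control library 1 stood highest, and without it the log2 fold change was -0.57 and no longer past the threshold.

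SPRED1 (chromosome 15, 38252836 to 38357249) was the member whose groups shared the same range. It had 28, 31.5 and 35.2 CPM in knockdown, against 28.3, 28.6 and 34.4 CPM in control, and its log2 fold change of 0.05 ± 0.09 SE was not past the threshold. The sign of this value depended on the scaling, with -0.11 on log2(TPM + 1), where TPM is the authors' level scaled for transcript length and library size. Its relatives outside the 10 genes were lower: SPRED2 by a log2 fold change of -0.41 ± 0.08 SE (edgeR adjusted p = 0.000132) and SPRED3 by -0.60 ± 0.17 SE (edgeR adjusted p = 0.00465), while SPRY3 had -0.17 ± 0.17 SE (edgeR adjusted p = 0.417).

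IL17RD, also called SEF, is a membrane protein that binds FGF receptors and dampens their signal. The gene (chromosome 3, 57089982 to 57170317) had 52.9, 50.3 and 51.8 CPM in knockdown, against 65.4, 65.3 and 62.5 CPM in control. The groups did not overlap, but at a log2 fold change of -0.32 ± 0.05 SE (1.25-fold lower) the gap was the narrowest among the members whose groups stood apart.

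Over the set, 8 of the 9 genes past the filter had an adjusted p under 0.05 in the edgeR quasi-likelihood fit, all 8 lower in knockdown, where 25.3% of all 13468 genes were called lower and 26.4% higher. The 3 knockdown libraries lay below the 3 controls for 8 of 9, where 28.2% of all genes had that order and 57.3% had groups apart in either direction. At least 2-fold lower and called were 5 of the 9, ETV1, DUSP6, ETV5, SPRY1 and DUSP4, where 2.37% of all genes were. These counts follow from how the genes were chosen and carry no weight of their own. The median log2 fold change was -1.02 over the 9 genes and -0.01 over all genes tested. By rank from the lowest log2 fold change among 13468 genes, ETV1 was number 56 and DUSP6 number 59, ETV5 144, SPRY1 155, DUSP4 307, SPRY2 609, SPRY4 610, IL17RD 2482 and SPRED1 7748. Summed over the 10 genes, the level was 150, 154 and 155 CPM in knockdown, against 262, 259 and 268 CPM in control.

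**Figure D2:**
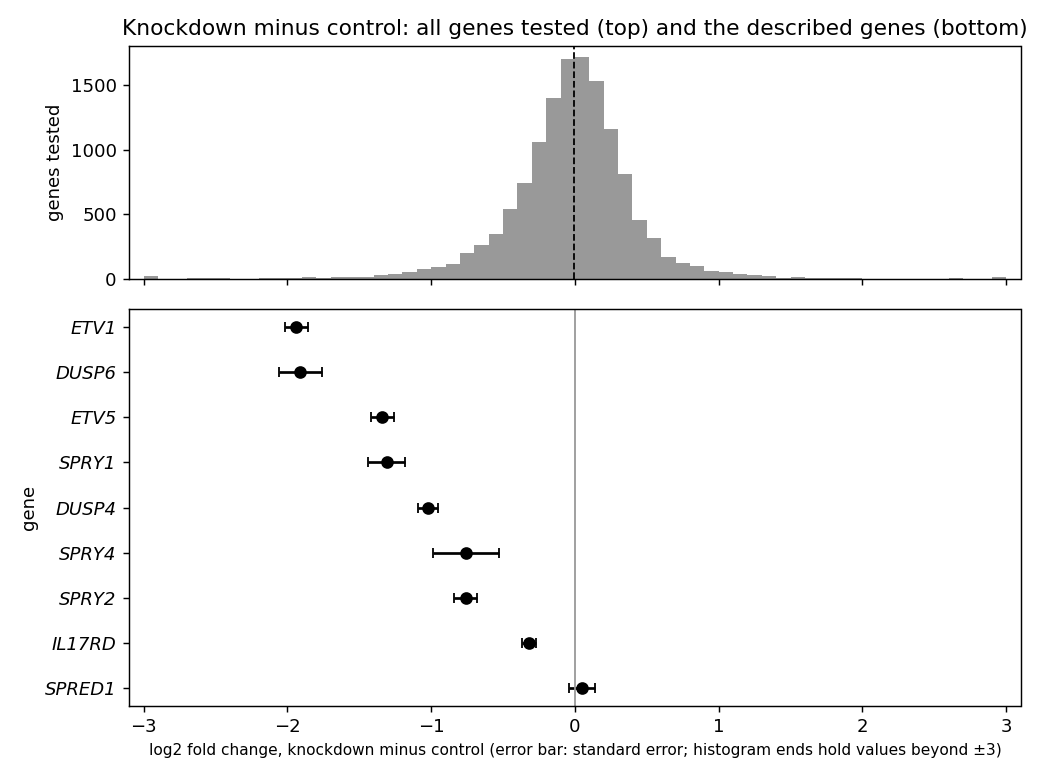
Top, number of tested genes by log2 fold change (knockdown minus control), with a dashed line at the median of -0.01. Bottom, log2 fold change with its standard error for the 9 genes past the filter, which run from -1.94 for ETV1 to 0.05 for SPRED1.

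The level per transcript length, in TPM, shows which of these genes supplied most of the transcripts and how the order changed. SPRY2 was highest in both groups, at 10.5 ± 0.676 TPM in knockdown and 20.3 ± 0.968 TPM in control (SD, n = 3 each). Below it in knockdown came IL17RD (8.25), SPRED1 (6.15), DUSP4 (5.6), ETV5 (4.3), ETV1 (2.44), SPRY1 (2.32), DUSP6 (0.933), SPRY4 (0.41) and ETV4 (0.26 TPM). In control the order below it was DUSP4 (13), ETV5 (12.4), IL17RD (11.7), ETV1 (10.7), SPRED1 (6.69), SPRY1 (6.46), DUSP6 (3.83), ETV4 (0.81) and SPRY4 (0.777 TPM). Neighbours whose libraries overlapped, and whose order is therefore not settled, were SPRED1 with DUSP4 and ETV1 with SPRY1 in knockdown, and DUSP4 with ETV5, SPRED1 with SPRY1 and ETV4 with SPRY4 in control. IL17RD thus held place 2 in knockdown and place 4 in control. SPRED1 stood at place 3 or 4 in knockdown and at place 6 or 7 in control.

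**Figure D3:**
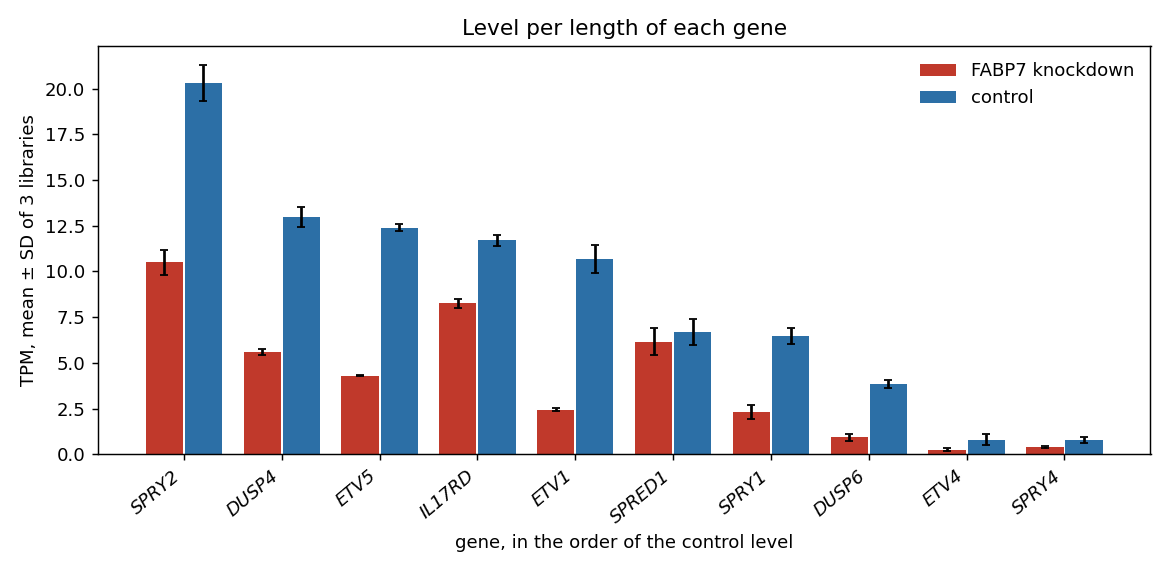
Mean TPM with SD over 3 libraries for each of the 10 genes, knockdown in red left of control in blue, ordered by the control level. SPRY2 is the tallest in both groups, and SPRED1 has bars of nearly the same height, 6.15 and 6.69 TPM.

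The TPM ratio within each library is given for 5 pairs of relatives, and the groups stood apart in all but the pair with ETV4. These ratios follow from the differences of genes that were chosen on the same libraries. How often ratios of other gene pairs stand apart was not computed, and nothing is read from the separation. ETV1 stood at 0.567 ± 0.0222 of the ETV5 level in knockdown and at 0.865 ± 0.051 in control (SD, n = 3 each). DUSP4 exceeded DUSP6 by a factor of 6.17 ± 1.27 in knockdown and 3.39 ± 0.336 in control. SPRY2 exceeded SPRY1 by 4.58 ± 0.397 in knockdown and 3.15 ± 0.375 in control. SPRY1 exceeded SPRY4 by 5.65 ± 0.525 in knockdown and 8.51 ± 1.48 in control. In each of these pairs the 3 knockdown ratios did not overlap the 3 control ratios. The ratio of ETV5 to ETV4 overlapped between the groups, at 18.4 ± 7.51 in knockdown and 17.6 ± 8.81 in control, with ETV4 near its limit of detection.

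The genes lie on 9 chromosomes. Tested genes within 5 Mb of each member had medians of log2 fold change from -0.12 around ETV1 (12 genes) to 0.14 around DUSP6 (23 genes). Their transcripts differ in build: SPRY1, SPRY2 and SPRY4 each carry the whole coding sequence in 1 exon, as 5.94% of the other tested genes do, while ETV1, ETV4 and ETV5 each spread it over 12. The 3′ UTRs, in the principal GENCODE 29 transcript, were longest in IL17RD (6411 bases), SPRED1 (5585) and ETV1 (4638), with a median of 2176 bases over the 10 genes and 1140 over the other tested genes. The AU-rich word TATTTAT, a hallmark of short-lived mRNAs, was found in 6 of the 10, up to 5 times in SPRED1 and 4 times in DUSP4, and in 33.4% of the other tested genes. These counts take no account of the longer 3′ UTRs of the set. Per kb of 3′ UTR, the shorter word ATTTA had a median of 1.64 over the 10 genes and 1.63 over the other tested genes.

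Other genes of the pathway were followed through 8 lists, 183 genes in all, of which 178 were in the table and 156 were tested. In the edgeR fit 30 of the 156 rose and 56 fell, 55.1% in all against 51.7% of all genes tested, with a median log2 fold change of -0.09. Where a count depends on the scaling it is given also on log2(TPM + 1), which moved the median of all genes to -0.16. On that scale 11.9% of all 12411 genes were called higher and 45.9% lower, so a tilt of a list towards lower calls there is shared by the table as a whole.

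At the receptors, 4 of 17 kinases rose and 5 fell, with a median of -0.02 (3 and 7 of 14 on log2(TPM + 1), median -0.13). FGFR3, an FGF receptor of ventricular zone progenitors, rose to 106, 98.7 and 103 CPM in knockdown, against 16.4, 18.8 and 15.4 CPM in control (log2 fold change 2.61 ± 0.07 SE, edgeR adjusted p = 6.4e-19). It moved opposite to the ETV, DUSP and Sprouty genes, which lie downstream of such receptors. FGFR1 and FGFR2 did not pass the test, at log2 fold changes of -0.02 ± 0.05 SE and -0.01 ± 0.07 SE (edgeR adjusted p = 0.773 and 0.903). On log2(TPM + 1) both passed as lower (adjusted p = 0.0203 and 0.0127 in limma). MET, the receptor of hepatocyte growth factor, was nearly lost, with 2, 2 and 1 counts in knockdown against 84, 96 and 98 counts in control. The ratio of knockdown to control was 0.018 with a 95% interval of 0.0058 to 0.0425 for counting error only. NTRK2, the BDNF receptor, rose by 0.65 ± 0.06 SE and NTRK3, the neurotrophin-3 receptor, fell by 0.48 ± 0.06 SE on the log2 scale.

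Growth factor genes fell more often than they rose, 9 against 3 of 18 tested, with a median of -0.28 (13 and 0 of 17 on log2(TPM + 1), median -0.37). FGF19, a secreted FGF, fell to 0.614, 0.878 and 0.998 CPM in knockdown, against 6.4, 7.46 and 6.34 CPM in control (log2 fold change -3.00 ± 0.20 SE, edgeR adjusted p = 2.79e-11). KITLG, the ligand of KIT, had a log2 fold change of -1.02 ± 0.09 SE, FGF14, an intracellular FGF of neurons that modulates sodium channels, -0.88 ± 0.08 SE, and PDGFC, a platelet-derived growth factor, -0.84 ± 0.14 SE. FGF8 was too low to test in either group, with 16 counts over the knockdown libraries and 18 over the control libraries. FGF9 fell (-0.64 ± 0.13 SE), while FGF2, the growth factor of neural stem cell cultures, had -0.09 ± 0.07 SE (edgeR adjusted p = 0.262) at 41.7 CPM in knockdown and 44.5 CPM in control.

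Between the receptor and ERK, the share of genes called in the edgeR fit was near the 51.7% of all genes in both lists. Of 19 adaptors and exchange factors 4 rose and 6 fell, with a median of -0.02 (2 and 9 of 16 on log2(TPM + 1), median -0.18). FLRT2, a transmembrane protein whose family binds FGF receptors, fell (-0.94 ± 0.09 SE), as did RASGRF1, a neuronal exchange factor for RAS (-0.77 ± 0.08 SE), and SHC3, a neuronal adaptor (-0.43 ± 0.08 SE), whereas the adaptor CRKL rose (0.35 ± 0.04 SE). Of 21 genes of the RAS, RAF, MEK and ERK core 4 rose and 6 fell, with a median of -0.05 (2 and 14 of 21 on log2(TPM + 1), median -0.23). MRAS, a RAS relative, fell by 0.77 ± 0.07 SE, KSR2, a scaffold of the relay, by 0.61 ± 0.11 SE and RPS6KA1, a kinase that ERK activates, by 0.47 ± 0.09 SE on the log2 scale, and LAMTOR3, a MEK scaffold on endosomes, rose by 0.46 ± 0.04 SE. MAPK3, which encodes ERK1, had a log2 fold change of -0.32 ± 0.08 SE (edgeR adjusted p = 0.00187).

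**Figure D4:**
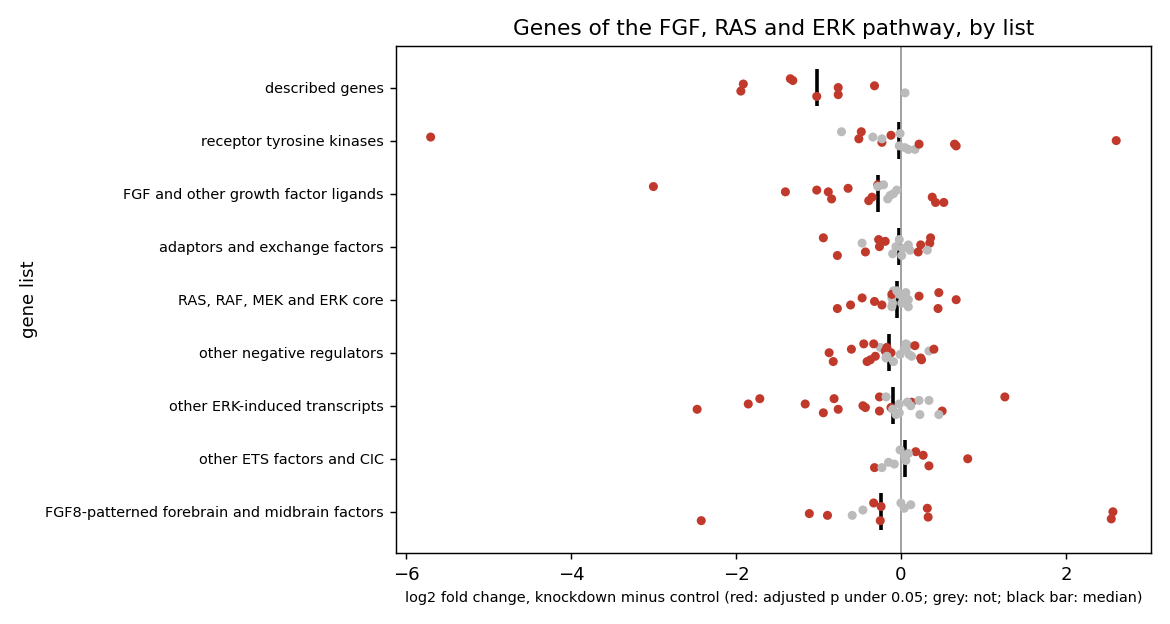
Log2 fold change (knockdown minus control) of each tested gene in the described set, top row, and in 8 lists of the pathway, with red for adjusted p under 0.05, grey for the rest and a black bar at the median. The described set has its median at -1.02, and the medians of the lists lie between -0.28 and 0.05.

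Negative regulators outside the described set fell in 11 cases of 26 and rose in 4, with a median of -0.14 (14 and 1 of 25 on log2(TPM + 1), median -0.25). ERRFI1, an inhibitor of the EGF receptor, fell by 0.82 ± 0.05 SE on the log2 scale, but it lies on chromosome 1 among 74 tested genes within 5 Mb whose median was -0.54. DUSP1, a nuclear phosphatase of several MAP kinases, fell by 0.45 ± 0.06 SE. Among phosphatases closest to DUSP4 and DUSP6, DUSP5 had a log2 fold change of -0.87 ± 0.25 SE (edgeR adjusted p = 0.00575) and DUSP7 -0.37 ± 0.08 SE (edgeR adjusted p = 0.00057), while DUSP9 had -0.01 ± 0.22 SE. LRIG1, which promotes the degradation of growth factor receptors, rose by 0.40 ± 0.05 SE, and PEA15, which holds ERK in the cytoplasm, by 0.24 ± 0.04 SE, a call lost on log2(TPM + 1) (adjusted p = 0.243).

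Other transcripts that ERK induces fell in 12 cases of 27 and rose in 3, with a median of -0.10 (16 and 1 of 25 on log2(TPM + 1), median -0.25). EPHA2, an ephrin receptor, fell by 1.16 ± 0.08 SE on the log2 scale, within a part of chromosome 1 where 73 tested neighbours had a median of -0.52. IER5 fell by 0.76 ± 0.06 SE and FOS, an immediate early factor, by 0.81 ± 0.09 SE, whereas KLF6, a zinc finger factor, rose by 0.50 ± 0.05 SE. Further from the list, PHLDA1 fell by 0.43 ± 0.06 SE, EPHA4 by 0.26 ± 0.04 SE, FOSL2 by 0.94 ± 0.11 SE, LIF by 1.71 ± 0.31 SE and VGF by 1.85 ± 0.21 SE. CCND1, which encodes cyclin D1, did not go with them: its log2 fold change was 0.13 ± 0.05 SE (edgeR adjusted p = 0.0413), its call was lost in 11 of the alternatives (among them each knockdown library left out in turn, adjusted p = 0.0827 to 0.106, and control replicates 2 and 3, 0.0562 and 0.117) and its sign was negative on log2(TPM + 1), at -0.05. MYC had 0.22 ± 0.12 SE (edgeR adjusted p = 0.122), and passed without control replicate 2 (adjusted p = 0.0482).

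The ETS factors outside the PEA3 group, with CIC and its partners, showed 4 rises and 1 fall among 13 tested, with a median of 0.05 (1 and 3 of 12 on log2(TPM + 1), median -0.11). ELK4, a partner of SRF, rose by 0.81 ± 0.05 SE although it lies on chromosome 1 among 73 neighbours with a median of -0.44. ERF, an ETS repressor that ERK inactivates, rose by 0.34 ± 0.08 SE, ATXN1L, a CIC partner, by 0.27 ± 0.05 SE and ELK1 by 0.18 ± 0.07 SE, and ATXN1, another CIC partner, fell by 0.32 ± 0.07 SE. On log2(TPM + 1) the calls of ERF, ATXN1L and ELK1 were lost (adjusted p = 0.132, 0.264 and 0.922). The ELK1 call was also lost without knockdown replicate 2 (adjusted p = 0.097) or 3 (0.0667) and without control replicate 1 (0.0751) or 3 (0.119). CIC itself had a log2 fold change of -0.15 ± 0.09 SE (edgeR adjusted p = 0.182), and on log2(TPM + 1) it was called lower (adjusted p = 0.0236), as it was when control replicate 3 was left out (0.016).

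Factors that FGF8 patterns in the forebrain and midbrain fell in 6 cases of 15 and rose in 4, with a median of -0.24 (5 and 3 of 11 on log2(TPM + 1), median -0.12). SP8, which is induced by FGF8 at the anterior midline, fell to 26, 22.2 and 24.5 CPM in knockdown, against 46.3, 43.7 and 44.3 CPM in control (log2 fold change -0.89 ± 0.07 SE, edgeR adjusted p = 2.4e-10). NR2F1 and NR2F2, caudal factors that FGF8 is known to repress in the mouse cortex, rose by 2.57 ± 0.08 SE and 2.55 ± 0.10 SE on the log2 scale. PAX6, a dorsal progenitor factor, fell by 0.25 ± 0.04 SE.

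The 3 genes outside the set whose centred log2 CPM profile over the 6 libraries lay closest to the mean profile of its 9 tested genes, among 10851 genes of at least 5 CPM, were SNAP25, ZNF608 and RABIF. Their distances were 0.0998, 0.0999 and 0.108 on the log2 scale, and their log2 fold changes were -1.04 ± 0.05 SE, -0.94 ± 0.06 SE and -1.02 ± 0.07 SE. With 6 libraries in 2 groups this likeness is mostly a like size of the difference between the groups. RABIF lies on chromosome 1 (202878282 to 202889149), as does ELK4, and the median of the genes around RABIF was not computed.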

How the data were processed

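Bulk RNA was measured in 6 libraries, with totals and depth as given above. The table held, as deposited by the authors, estimated counts, TPM, FPKM and a normalized read count, per the file headers. That signal, by its deposited values, is the estimated count times a near-constant factor in each library. FPKM, the normalized signal and the authors' means entered no test. Per the submitters' processing notes the genome build was hg38. No source used here gives the aligner, the counting tool or strand use, and the labels' protocol describes only single-cell libraries. Between 12.6 and 14.9% of the expected counts in a library were not whole, and counts were rounded. No replicate repeated another (chi-square per degree of freedom 1.65 to 4.08).

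The fit across all genes used edgeR 4.0.16 in R 4.3.3 with TMM factors (0.974 to 1.03), filterByExpr (minimum count 10, minimum total 15), the robust quasi-likelihood test and Benjamini-Hochberg adjustment at 0.05. It was also run on simulated counts with few changed genes and a common spread for all genes. The data differ in both, so that run does not speak for the calls given here. A log2 fold change above 0 means higher in knockdown, and its SE is from that fit. Alternatives were other scalings and filters, DESeq2 1.42.0, limma 3.58.1 (voom, and trend on TPM with 1 or 0.1 added), a replicate block, removal of the trend with effective length by splines with 5 degrees of freedom, and leaving out each library.

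The members and lists were chosen with earlier results of these data known. Named were the 10 members, FABP7, in each list up to 4 called genes by smallest p (all where 5 or fewer were called), the most abundant markers and the 3 nearest profiles. Names chosen after their values were seen are SPRED2, SPRED3, SPRY3, FGFR1, FGFR2, FGF2, FGF8, FGF9, MAPK3, DUSP5, DUSP7, DUSP9, PHLDA1, EPHA4, FOSL2, LIF, VGF, CCND1, MYC, CIC, PTPRC and GFAP. Some genes of the lists are not reported here. Positions came from RefSeq on GRCh38.p14 and transcript parts from GENCODE 29 on the same build.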

Additional observations from a re-analysis of the deposited data

How the results depend on the processing

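Of the 9 tested members, ETV1, ETV5, DUSP4, DUSP6, SPRY1, SPRY2 and IL17RD stayed lower and past the all-gene threshold under every alternative that tested them, which, the set being chosen on these libraries, supports nothing. SPRY4 was not past the threshold in DESeq2 (log2 fold change -0.76) or without control replicate 1 (-0.57), and SPRED1 ranged from -0.12 to 0.15 and was called in none. The median over the members, -1.02 over 9 genes, was -1.09 with library totals and -0.94 with the length trend removed, over the same 9. Other alternatives tested other numbers of members. The median was -1.17 in DESeq2 and -1.16 with no filter (10 genes each), and -0.91 with at least 10 CPM (6 genes). It was -1.13 and -1.32 on TPM with 1 and 0.1 added (8 genes each), and -1.17 to -1.02 without single libraries (9 or 10 genes). In DESeq2 the 9 shared members kept nearly the same log2 fold changes, so the shift there came with the entry of ETV4. Of members 8 were called, 5 (of 6 tested) with at least 10 CPM and 7 to 9 without single libraries, ETV4 being tested in some of these. With at least 10 CPM the lists had 6 called ligands (12 in the fit reported above), 0 mesenchyme, 0 pluripotency, 1 oligodendrocyte and 1 astrocyte gene. On TPM with either addition they had 2 pluripotency, 1 choroid plexus, 1 oligodendrocyte and 1 astrocyte gene, and 16 of the RAS to ERK core with 1 added (10 in the fit reported above). DESeq2 called 1 astrocyte gene, and leaving out single libraries gave 1 to 2. Of called genes 51.1% were higher, but 37.7% with library totals and 20.6% on log2(TPM + 1). The replicate block moved called genes to 7114, against 6966, with 8 members called and a median of -1.02. Same-numbered libraries deviated together only weakly (correlations 0.0698, 0.0653 and 0.0393), replicate 3 of knockdown correlating better with another number (0.0566), so the numbers were not taken to pair the libraries. Depth limits ETV4, SPRY4 and FGF8, whose counts were under 50 in each library.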
